A study of Homo sapiens with 12 samples.

Results

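The replication-dependent histone genes encode the H1, H2A, H2B, H3 and H4 proteins that package newly made DNA. They were taken from both deposited expression tables by symbol alone, as rows whose gene name starts with HIST1H, HIST2H, HIST3H or HIST4H, or has the newer form (H1-1 to H1-6, or H2AC, H2BC, H3C or H4C with a number). The rule found 55 of 16406 genes in the table of motor neurons and 64 of 19016 in the table of NGN2-induced neurons. All 55 genes of the motor neuron table were also listed in the other table, and 9 were listed in the NGN2 table only. Of all genes, 16093 were listed in both tables, out of the 16406 and 19016. Being listed in the NGN2 table only was thus about as frequent among all genes as among the members. By class, 5 of the 64 members were H1 genes, 15 H2A, 19 H2B, 12 H3 and 13 H4. Symbols are given as in the tables, with the current symbol where it helps.

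The study sequenced RNA from 12 neuron cultures. Motor neurons (iMNs) were made with small molecules from 1 human induced pluripotent stem cell line in which the HB9 promoter drives Td-Tomato, and were sorted for that reporter. The i3Ns (iNeurons, labelled as cortical neurons) were made from H1 embryonic stem cells by doxycycline-induced NGN2. Each type was transduced with lentivirus carrying a doxycycline-inducible shRNA, either scrambled (SCR, 3 libraries) or against *SMN1* and *SMN2* (*SMN*-KD, 3 libraries), and harvested after 12 days of knockdown. Doxycycline and the lentiviral vector were thus shared by SCR and *SMN*-KD cultures. Each deposited table gives, for every gene, the authors' mean over the 6 libraries of its cell type, SCR and *SMN*-KD pooled, of counts divided by a size factor per library. That mean is the only level used below. It has no replicate error, no library can be shown by itself, and it cannot separate SCR from *SMN*-KD, so no test was run and every comparison is a description of 2 pooled values. The depth of the libraries is unknown from these tables. The 2 tables were normalized separately, and cell type, stem cell line and differentiation protocol cannot be told apart between them.

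Replication-dependent histone mRNAs are unusual among messenger RNAs because they end in a conserved stem-loop and not in a poly(A) tail. Stem-loop binding protein (SLBP) holds the stem-loop, and the U7 small nuclear ribonucleoprotein pairs with a purine-rich element just downstream, after which CPSF3 cuts between them. U7 carries LSM10 and LSM11 in place of 2 of the usual Sm proteins, and its ring of Sm and LSm proteins is assembled by the SMN complex, whose SMN protein the shRNA targets. The genes are known to be transcribed mainly in S phase, and dividing cells degrade their mRNAs when DNA synthesis stops. Neurons have left the cell cycle, and some histone genes are known to give polyadenylated transcripts in differentiated cells. The libraries were made from total RNA after ribosomal RNA depletion, without selection for poly(A), so that transcripts with either kind of end could be read.

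The stem-loop is shown first because it is what the members share that the rule on symbols did not use. In GENCODE v44 (GRCh38, the hg38 assembly), 63 of the 64 members had an entry under their listed gene identifier, of which 60 are annotated as protein-coding. The identifier listed for HIST2H2AA4 had no entry there, so this gene has no length or sequence here. A stem of 6 pairs beginning with GG around a loop of 4 bases lay within 100 bases after the stop codon in 58 of the 60 protein-coding members (96.7%) and in 65 of 19986 other protein-coding genes (0.325%). The other genes, here and in the searches below, include histone genes that match the rule on symbols but whose identifiers were in neither table, such as H1-1 and H4C12. The remaining members HIST1H2AG and HIST1H2AK had the same stem with 1 G-T pair. The stem-loops came in 8 versions, of which these are the 4 most frequent, followed by the pair of imperfect ones, 5′ to 3′ on the strand of the mRNA:

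34 genes of classes H1, H2A, H2B and H3: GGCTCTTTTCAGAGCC
9 genes of class H4: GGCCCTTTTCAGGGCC
8 genes of classes H1, H2A, H2B and H3: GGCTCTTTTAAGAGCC
3 genes of class H4: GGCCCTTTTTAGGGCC
HIST1H2AG: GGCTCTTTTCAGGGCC
HIST1H2AK: GGTTCTTTTCAGAGCC

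All 13 H4 genes had the stem GGCCCT, and all other 45 genes with a perfect stem-loop had GGCTCT.

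The bases past the stem-loop were read from the genome, since the U7 site lies there. AAAGAG, the core of the purine-rich element searched on the strand of the mRNA only, occurred within 30 bases past the stem-loop in 20 of 58 members (34.5%). The same letters occurred in the 30 bases past the annotated end of 108 of 19988 other protein-coding transcripts (0.540%). Those of HIST1H2AG and HIST1H2AK, without a perfect stem-loop, were counted among these others. In the members it began 14 to 19 bases past the stem-loop, with a median of 17. AAGAG, which includes every AAAGAG, was found in 27 members (46.6%) and past 383 other transcripts (1.92%). By class, AAAGAG was found in 3 of 5 H1 genes, 2 of 12 H2A, 7 of 16 H2B, 0 of 12 H3 and 8 of 13 H4. Missing letters in this window say nothing about processing of a gene. The following lines give the stem-loop in capitals, then 26 bases past it in lower case with any AAAGAG in capitals, for the leading H1, H2A and H4 genes, for an H2B gene, and for HIST1H3B and HIST1H4J, which the levels below turn on. The coordinates are those of the stem-loop.

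HIST1H1E, chr6:26157095-26157110, plus strand: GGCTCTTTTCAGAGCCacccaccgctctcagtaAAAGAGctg
HIST1H2AE, chr6:26217417-26217432, plus strand: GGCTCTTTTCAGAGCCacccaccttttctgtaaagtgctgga
HIST1H2BM, chr6:27815469-27815484, plus strand: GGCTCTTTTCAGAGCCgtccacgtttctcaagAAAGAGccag
HIST1H3B, chr6:26031597-26031612, minus strand: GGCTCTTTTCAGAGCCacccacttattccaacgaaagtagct
HIST1H4E, chr6:26205001-26205016, plus strand: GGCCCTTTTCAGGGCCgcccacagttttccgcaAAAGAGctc
HIST1H4J, chr6:27824459-27824474, plus strand: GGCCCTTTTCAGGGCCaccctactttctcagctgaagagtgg

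HIST1H1E, HIST1H2BM and HIST1H4E carry the core in this window, whereas HIST1H2AE, HIST1H3B and HIST1H4J do not. HIST1H2AE and HIST1H4J were nonetheless among the most abundant members in both tables.

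Levels of different genes were compared as the authors' mean per kilobase of the reference transcript, because H1 transcripts are longer than those of the core histones. On that scale the median of the members was 633 in the iMN table (54 genes with a length) and 729 in the i3N table (63 genes), whereas the median of all genes was 287 and 210. In iMNs, 38 members lay above the median of all genes, and in i3Ns, 49 did. Ranked among all genes of its table by level per kilobase, the median member stood at percentile 70.2 in iMNs and 76.4 in i3Ns. The members ranged from percentile 13.6 to 99.3 in iMNs and from 8.21 to 99.3 in i3Ns. The summed means of the members were 44313 normalized counts in iMNs and 49120 in i3Ns, or 0.102% and 0.109% of all normalized counts of the table. The level was concentrated in few genes, since the 5 highest members held 44.5% of the summed level per kilobase in iMNs and 41.9% in i3Ns, and the 10 highest 63.4% and 59.9%.

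**Figure D1:**
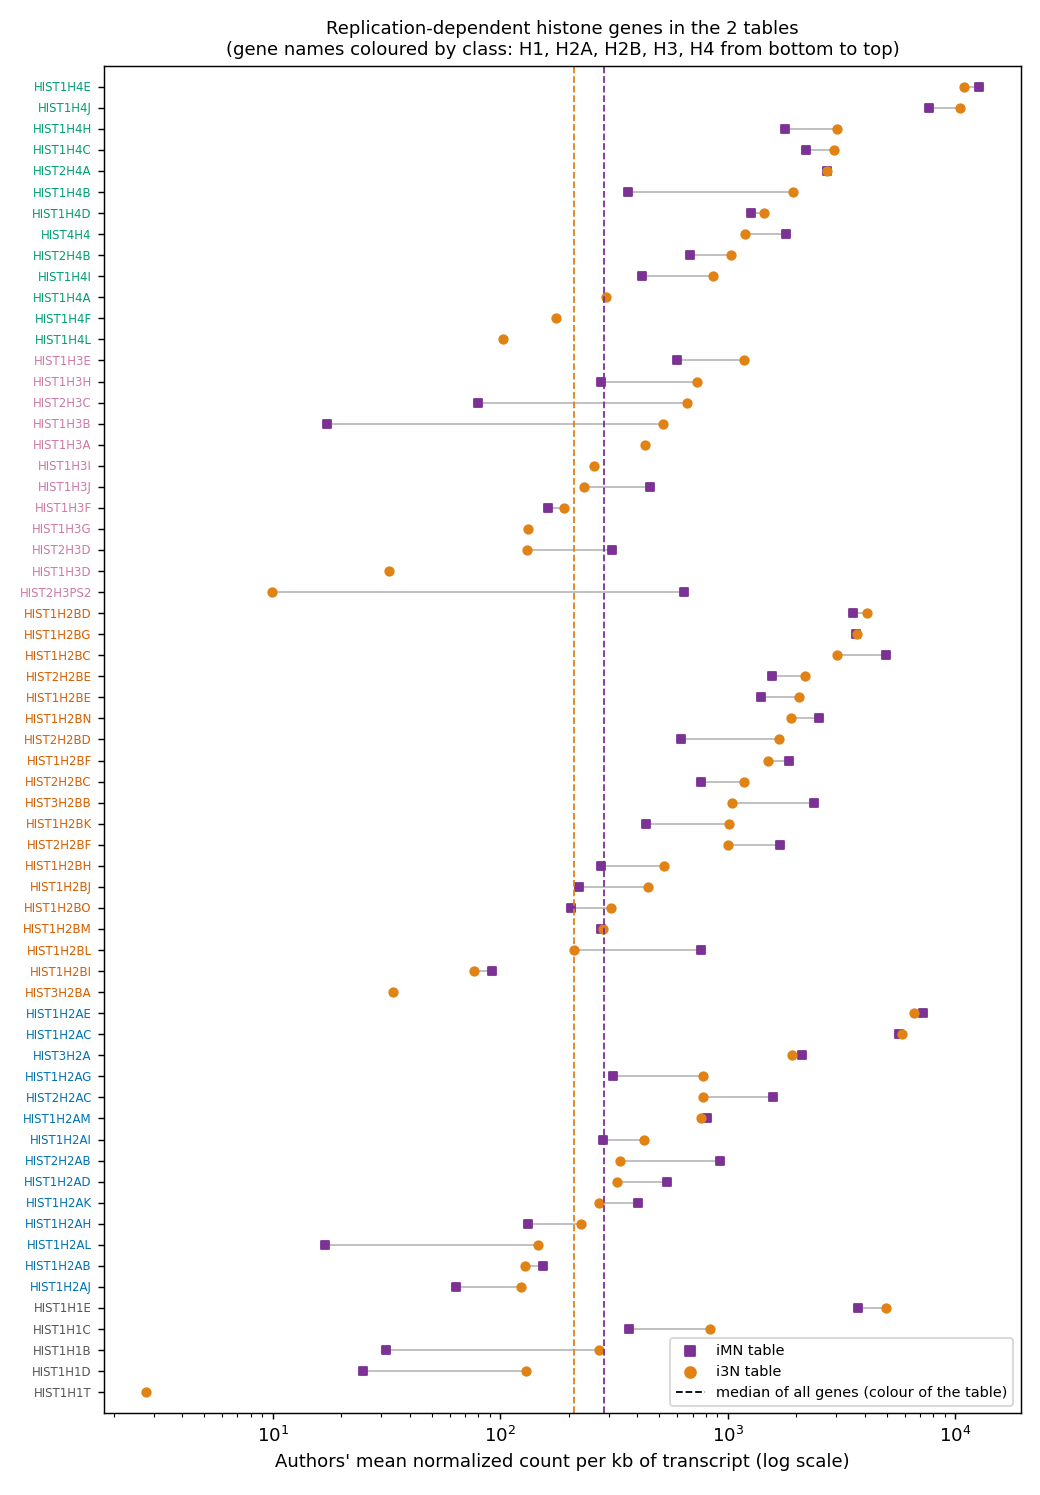
Level of each replication-dependent histone gene, as the authors' mean normalized count per kilobase of transcript on a log axis, in the iMN table (squares) and the i3N table (circles), with dashed lines at the median of all genes of each table. HIST1H4E is the highest in both, most genes lie close to each other in the 2 tables, and HIST1H3B and HIST2H3PS2 lie far apart in opposite directions.

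The plot of members by gene shows that the highest gene of the H1, H2A and H4 classes was the same in both cell types, whereas the H2B and H3 classes had different leaders. For H2B this depended on the length given to HIST2H2BE, as described below. The H4 genes, which encode 1 identical protein, made up the largest share, 36.9% of the members' summed level per kilobase in iMNs and 40.01% in i3Ns. H2B genes followed with 31.8% and 28.3%, and H2A genes with 23.5% and 20.1%. The H1 linker histones held 4.86% and 6.70%, and the H3 genes 2.96% and 4.87%. H3 was thus the lowest class in both tables although each nucleosome holds equal numbers of the 4 core histones. The order H4, H2B, H2A, H1, H3 was the same in both tables. It depended on counting: without division by length, H2B came before H4 in both tables, and without the 16 members that share over 50% of their 31-base words with other genes, H2B came before H4 in iMNs only. H2A, H1 and H3 kept their places in each case.

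**Figure D2:**
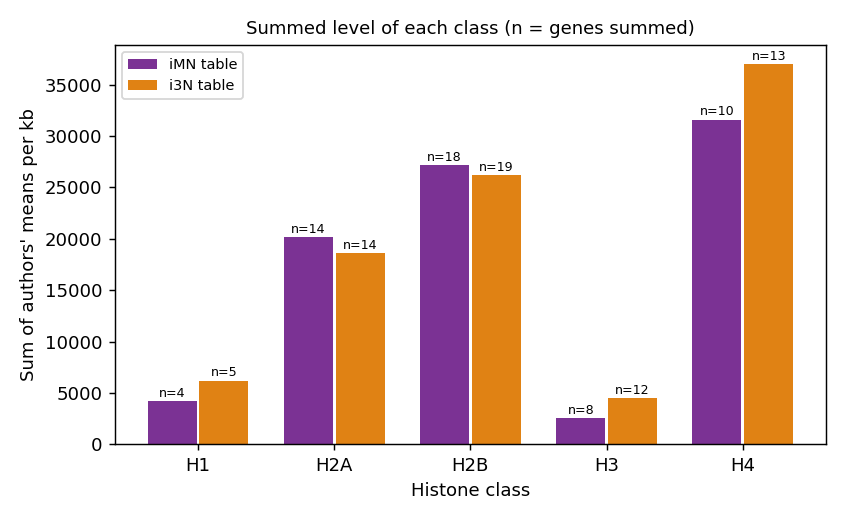
Sum of the authors' means per kilobase over the members of each histone class in the iMN and i3N tables, with the number of genes summed above each bar. The H4 bars are the tallest (31614 and 37054) and the H3 bars the lowest (2541 and 4509).

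HIST1H4E (H4C5) was the highest member per kilobase in both tables. Its authors' mean was 5223 normalized counts in iMNs and 4490 in i3Ns, which per kilobase is 12677 and 10898, at percentile 99.3 of all genes in each. HIST1H4J followed with 7677 and 10475 per kilobase. Its value is uncertain, since 92.5% of the 31-base words of its transcript also occur in H4C12, and reads could be assigned to either. HIST2H4A (2739 and 2716 per kilobase) and HIST2H4B (685 and 1032) share all their words with each other, so only their sum is meaningful. Other H4 genes above 1000 per kilobase in both tables were HIST1H4C (2202 and 2922), HIST1H4H (1789 and 3015), HIST4H4 (1805 and 1195), which lies alone on chromosome 12, and HIST1H4D (1258 and 1442). HIST1H4B reached 1929 in i3Ns but 363 in iMNs. These 5 genes share under 10% of their words with other genes. HIST1H4A, HIST1H4F and HIST1H4L were listed in i3Ns only, with means of 117, 70.3 and 39.7 normalized counts.

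Per kilobase of the reference transcript, the levels were spread more evenly among the H2B genes. On that scale HIST1H2BC led in iMNs (4976 per kilobase, 3005 in i3Ns) and HIST1H2BD in i3Ns (4082, and 3535 in iMNs), with HIST1H2BG next in both (3639 and 3677). HIST2H2BE had the largest mean of the H2B genes, 3483 and 4845 normalized counts, and the largest of any member in i3Ns. Per kilobase it was only 1566 and 2178, because its reference transcript runs on for 1729 bases past the stem-loop. With a transcript ending at the stem-loop, an alternative chosen after seeing the data, it would be 7036 in iMNs and 9787 in i3Ns. That would be the highest H2B level in both tables, against 5031 and 3038 for HIST1H2BC counted likewise. HIST2H2BC and HIST2H2BD are annotated as pseudogenes and share all their words with other transcripts, so their 763 and 624 per kilobase in iMNs are uncertain. The lowest H2B genes were HIST1H2BI, at 92.2 and 76.3 per kilobase, and the pseudogene HIST3H2BA, listed in i3Ns only with a mean of 12.9.

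HIST1H2AE (H2AC8) and HIST1H2AC (H2AC6) dominated the H2A class. HIST1H2AE reached 7191 per kilobase in iMNs and 6586 in i3Ns, and HIST1H2AC 5640 and 5834. Both share under 10% of their words with other genes and are well separated from the next H2A gene with a length, HIST3H2A (2127 and 1919). HIST2H2AA4 had means of 868 and 1078 normalized counts, against 1085 and 979 for HIST3H2A, but no length was found under its identifier. Its place in the class per kilobase is unknown. HIST2H2AA4 is therefore left out of all levels per kilobase, including the shares of classes and blocks and the sums of H2A genes. HIST1H2AE alone gave 35.7% of the class in iMNs and 35.3% in i3Ns. At the other end, HIST1H2AJ stood at 64.0 and 124 per kilobase, and HIST1H2AL at 17.04 and 146.

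A single gene also carried the H1 class. HIST1H1E (H1-4) gave 89.8% of the H1 level in iMNs and 80.0% in i3Ns, at 3738 and 4961 per kilobase. HIST1H1C (H1-2) was far lower, at 368 and 838, and HIST1H1D (H1-3) and HIST1H1B (H1-5) lower still in iMNs, at 24.9 and 31.4. HIST1H1T, the testis linker histone, was listed in i3Ns only, at a mean of 2.01 normalized counts. None of the H1 genes shares over 10% of its words with other genes, so near-identical copies bear little on these levels.

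No H3 gene came near the leaders of the other core classes. The highest was HIST2H3PS2 (H3-7) in iMNs, at 642 per kilobase, and HIST1H3E (H3C6) in i3Ns, at 1182. HIST1H3E was at 601 in iMNs, followed there by HIST1H3J at 453, and HIST1H3H followed HIST1H3E in i3Ns at 729. Of the 12 H3 genes, 4 were listed in i3Ns only, namely HIST1H3A (mean 220), HIST1H3I (129), HIST1H3G (65.8) and HIST1H3D (16.3). The H3 class also held the widest contrasts between the tables, described below.

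The members are clustered in the genome. The block at chr6:26020451-26285534 holds 28 of them and gave 61.3% of the members' level per kilobase in iMNs and 61.4% in i3Ns. The block at chr6:27807479-27893891, with 15 members, gave 16.05% and 17.8%, and the 5 members at chr6:27132316-27147562 gave 1.77% and 3.59%. On chromosome 1, the 10 members at chr1:149811879-149887965 gave 12.8% and 12.6%, and the 3 at chr1:228457364-228464594 gave 5.28% and 3.24%. The shares of the 3 largest blocks were thus close in the 2 tables and those of the 2 small blocks were not, and within the blocks neighbouring genes differed widely. In the block of 28 genes, levels per kilobase ran from 17.4 to 12677 in iMNs.

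The arrangement of H2A and H2B genes gives a direct comparison of neighbours, because 11 pairs of members are transcribed away from each other from starts only 193 to 250 bases apart. The sequence between the starts serves both genes. All 11 held CCAAT, from 3 to 6 times counting both strands, 8 held TATAAA and 8 held ATTTGCAT, the octamer bound by POU2F1 (OCT1). The next lines give the sequence between the starts for the pair with the highest H2A gene, for the pairs with the most unequal levels per kilobase of reference transcript in either direction, and for a pair whose order differed between tables. It is written on the plus strand, with these 3 motifs on either strand in capitals.

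HIST1H2BG (leftward) and HIST1H2AE (rightward), chr6:26216689-26216920: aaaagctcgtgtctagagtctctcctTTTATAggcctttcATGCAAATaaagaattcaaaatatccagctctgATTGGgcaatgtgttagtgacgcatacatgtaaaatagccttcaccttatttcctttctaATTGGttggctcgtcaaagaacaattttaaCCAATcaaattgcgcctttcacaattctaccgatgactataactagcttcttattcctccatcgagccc
HIST1H2AK (leftward) and HIST1H2BN (rightward), chr6:27838376-27838568: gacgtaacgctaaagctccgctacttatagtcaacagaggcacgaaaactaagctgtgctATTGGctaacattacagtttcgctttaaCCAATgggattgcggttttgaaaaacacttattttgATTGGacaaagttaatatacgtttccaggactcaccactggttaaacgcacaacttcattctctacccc
HIST1H2AM (leftward) and HIST1H2BO (rightward), chr6:27893186-27893424: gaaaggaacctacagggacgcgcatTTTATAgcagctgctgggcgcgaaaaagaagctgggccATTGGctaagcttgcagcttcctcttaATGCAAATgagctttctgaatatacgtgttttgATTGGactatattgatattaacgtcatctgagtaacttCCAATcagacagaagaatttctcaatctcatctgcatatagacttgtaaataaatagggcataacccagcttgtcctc
HIST1H2BL (leftward) and HIST1H2AI (rightward), chr6:27807930-27808172: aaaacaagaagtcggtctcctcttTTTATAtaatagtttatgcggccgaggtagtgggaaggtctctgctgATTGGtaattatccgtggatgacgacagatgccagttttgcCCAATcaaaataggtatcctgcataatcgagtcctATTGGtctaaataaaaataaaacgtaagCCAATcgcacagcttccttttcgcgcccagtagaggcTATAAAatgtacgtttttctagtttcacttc

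A shared start region did not give equal levels. In HIST1H2AK and HIST1H2BN the H2B gene was 6.24 times the H2A gene per kilobase in iMNs and 7.02 times in i3Ns. This ratio is uncertain, since 41.4% of the words of HIST1H2BN occur in other genes. Its reference transcript also has 542 bases, against 4137 for its longest. The sequence of this pair holds neither TATAAA nor the octamer. The same is true of HIST3H2A and HIST3H2BB, whose H2B gene was 1.13 times the H2A gene in iMNs and 0.544 times in i3Ns. In HIST1H2AM and HIST1H2BO the H2A gene was 3.97 times the H2B gene in iMNs and 2.51 times in i3Ns, but 69.1% of the words of HIST1H2AM also occur in other genes, so that this ratio is uncertain. HIST1H2AE was 1.98 and 1.79 times HIST1H2BG. Over the 11 pairs the H2B gene was the higher in 6 in iMNs and in 5 in i3Ns, and 8 pairs kept their order between the tables. The other 3 changed it. HIST1H2BL was 2.70 times HIST1H2AI in iMNs but 0.491 times in i3Ns, HIST2H2BE went from 0.992 to 2.81 times HIST2H2AC, and HIST3H2BB from 1.13 to 0.544 times HIST3H2A. Of the words of HIST1H2BL, HIST1H2AI and HIST3H2BB, 45.4%, 64.9% and 48.4% occur in other genes, which makes these changes of order uncertain. The level of HIST2H2BE was divided by its long reference transcript. With transcripts ending at the stem-loop, an alternative chosen after seeing the data, it was 4.41 times HIST2H2AC in iMNs and 12.5 times in i3Ns, the H2B gene was the higher in 7 pairs in iMNs and 5 in i3Ns, and 2 pairs changed order. As a description across pairs, Spearman's rho between the H2A and H2B levels was 0.655 in iMNs and 0.555 in i3Ns (n = 11 pairs in 1 pooled column each).

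**Figure D3:**
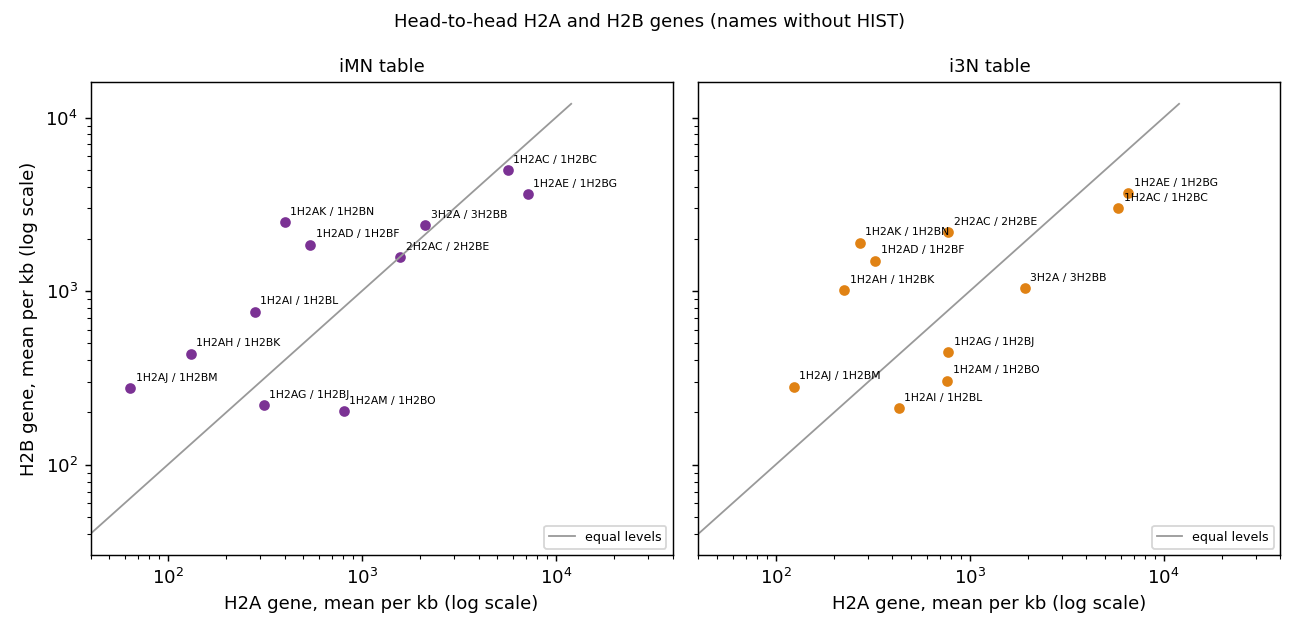
Level of the H2A gene (x axis) against that of the H2B gene (y axis) of each of the 11 head-to-head pairs, as authors' means per kilobase on log axes, in the iMN table (left) and the i3N table (right), with a line at equal levels. HIST1H2AK and HIST1H2BN lie far above the line in both, and HIST1H2AM and HIST1H2BO below it.

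RefSeq promoter windows (250 bases before the start to 50 after, GRCh38.p14) were matched by symbol for 55 members, 1 window a gene. CCAAT on either strand was found in all 44 windows of H1, H2A, H2B and H3 genes but in 3 of 11 of H4 genes, against 35.6% of the 27250 windows of other genes. TATAAA on either strand was found in 34 member windows (61.8%) and in 11.9% of the others. It lay mostly near the usual place of a TATA box, with a median of 31 bases before the start. ATTTGCAT was found in 10 of 13 H2A and 12 of 16 H2B windows, in no window of an H1, H3 or H4 gene, and in 1.72% of the other windows. Windows of head-to-head genes overlap, so the H2A and H2B counts are not independent. The 150 bases before the start are given for the leading H4 and H1 genes and for HIST1H3B, on the strand of the gene, with the 3 motifs of either strand in capitals.

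HIST1H4E, chr6:26204460-26204609, plus strand: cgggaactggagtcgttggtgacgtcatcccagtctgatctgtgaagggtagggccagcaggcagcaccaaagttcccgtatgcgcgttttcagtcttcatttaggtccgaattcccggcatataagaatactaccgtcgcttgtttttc
HIST1H1E, chr6:26156179-26156328, plus strand: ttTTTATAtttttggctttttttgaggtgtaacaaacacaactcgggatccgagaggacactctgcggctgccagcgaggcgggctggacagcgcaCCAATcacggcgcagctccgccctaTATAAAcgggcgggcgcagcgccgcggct
HIST1H3B, chr6:26032100-26032249, minus strand: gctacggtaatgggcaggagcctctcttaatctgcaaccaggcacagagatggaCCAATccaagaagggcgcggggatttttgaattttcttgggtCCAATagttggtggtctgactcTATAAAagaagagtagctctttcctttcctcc

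The highest member per kilobase, HIST1H4E, holds none of the 3 motifs in this stretch. Only their exact letters were searched, so this does not show that the gene lacks a TATA box. HIST1H1E and HIST1H3B hold CCAAT and TATAAA in the usual order. Members with TATAAA in the window had a median of 642 per kilobase in iMNs and 694 in i3Ns, and those without had 643 and 859. This counts the letters anywhere in the window on either strand, so it does not sort genes by a TATA box. In HIST1H2AE, for example, the letters lie only at 206 bases before the start. The medians with ATTTGCAT were 675 and 771, against 642 and 729 without. Those with CCAAT had medians of 437 and 520, against 1797 and 2323 for the 8 genes without it, all of which are H4 genes. Within H4, the 1 gene with CCAAT in iMNs was at 419 and the 3 in i3Ns had a median of 175, so the contrast lay the same way there on few genes. Members with AAAGAG past the stem-loop had a median of 1579 in iMNs and 1673 in i3Ns, against 543 and 382 without it. Within the H2B class the medians were 1566 and 1903 in the 7 genes with it and 1401 and 1014 in the 9 without. The contrast lay the same way in the H2A and H1 classes, but on few genes. Only 2 H2A genes held it, and the 10 without it include HIST1H2AE and HIST1H2AC, the highest of the class. The H2A medians were 1853 and 1348 with it against 412 and 330 without. The H1 medians were 368 and 838 in the 3 genes with it. Without it they were 31.4 in iMNs (1 gene) and 138 in i3Ns (2 genes). In the H4 class they were 1789 and 1686 with it against 2739 and 1032 without, lower with it in iMNs only, where the 3 genes that lack it are HIST1H4J, HIST2H4A and HIST2H4B with their uncertain values. No H3 gene held it, which also enters the contrast over all classes.

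A total of 14 members have at least 1 annotated transcript of 1000 bases or more. Their median level per kilobase of reference transcript was 1797 in iMNs and 1911 in i3Ns, against 410 and 430 for the other members. This contrast is uncertain. In all of the 14 but HIST2H2BE the reference transcript is shorter than the longest, as in HIST1H2BN, with 542 against 4137 bases. Reads of longer transcripts would raise a level divided by the reference length. Among the 14 were HIST1H2AC, HIST1H2BC, HIST1H2BN, HIST1H4H, HIST2H2BE and HIST4H4. The tables give 1 value a gene, so transcripts ending at the stem-loop and polyadenylated transcripts could not be separated.

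Set side by side, the levels of the members were ranked in a similar order in the 2 tables. Spearman's rho between the levels per kilobase was 0.832 over the 54 members with a length in both, a description of 2 pooled columns. Both levels of a gene were divided by the same length. No rho over all genes is given, so the value is not particular to the members. In such bulk samples, fewer cells of a type and less RNA per cell cannot be told apart. The ratio of the i3N mean to the iMN mean is given on the log2 scale relative to the median ratio of the 16093 genes listed in both tables, which was 0.07. On that scale the median member stood at 0.24, with 31 of 55 above 0 and 24 below. A difference of over 2-fold was seen in 11 members (20%) toward i3Ns, beside 9.95% of all genes listed in both tables, and in 7 (12.7%) toward iMNs, beside 14.7% of all genes. The H1 class had the highest median, 1.71, and all 4 of its genes were higher in i3Ns. The medians of the other classes were −0.15 for H2A, 0.05 for H2B, 0.53 for H3 and 0.36 for H4.

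**Figure D4:**
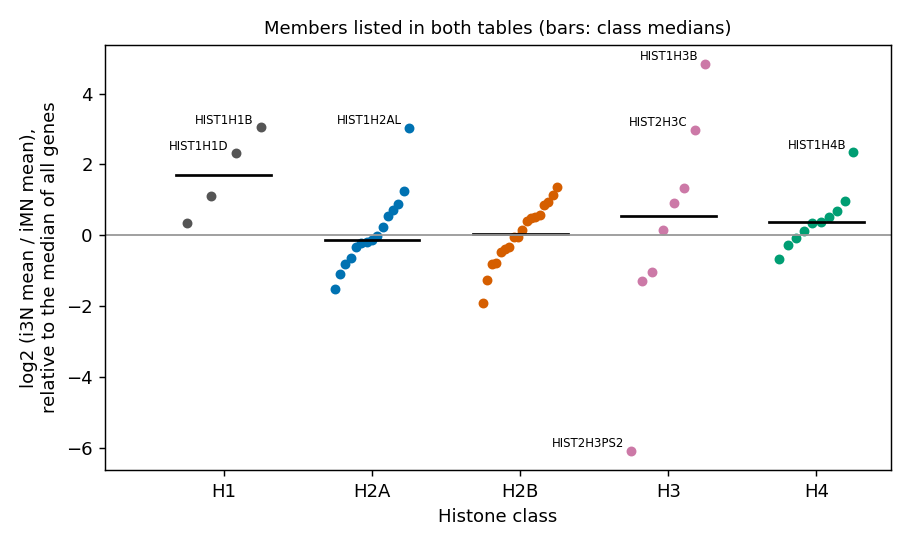
Log2 ratio of the i3N mean to the iMN mean for the 55 members listed in both tables, by class, relative to the median of all genes (grey line at 0), with bars at class medians. HIST1H3B (4.84) and HIST2H3PS2 (−6.09) are the extremes, and all 4 H1 genes lie above 0.

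Among members with a mean of at least 100 in either table, the 5 with the highest ratio were HIST1H3B, HIST1H1B, HIST2H3C, HIST1H4B and HIST1H1D. HIST1H3B had a mean of 8.88 normalized counts in iMNs and 266 in i3Ns, a ratio of 29.9. HIST1H1B went from 25.1 to 217, HIST1H4B from 141 to 748 and HIST1H1D from 19.3 to 101, ratios of 8.67, 5.32 and 5.21. These 4 share under 10% of their words with other genes. HIST2H3C went from 41.6 to 344, but 99.2% of its words occur in H3C15. HIST1H2AL, below the limit of 100, had a ratio of 8.58 between means of 8.21 and 70.5. HIST1H3B, HIST1H1B and HIST1H2AL were thus close to the bottom of the iMN table, between percentile 13.6 and 19.0, and between percentile 44.6 and 68.8 in the i3N table.

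The 5 members with the lowest ratio were HIST2H3PS2, HIST1H2BL, HIST2H2AB, HIST2H3D and HIST3H2BB. HIST2H3PS2, at chr1:143905510-143905977 and outside the histone blocks, had a mean of 300 in iMNs and 4.63 in i3Ns, a ratio of 64.9 in favour of iMNs. It is identical to HIST2H3D in the stem-loop and the 26 bases past it, and 69.2% of its words occur in other genes. HIST2H3D itself had means of 145 and 61.5. HIST1H2BL went from 343 in iMNs to 95.1 in i3Ns, HIST2H2AB from 458 to 166 and HIST3H2BB from 1093 to 477, ratios of 3.61, 2.76 and 2.29. Of these 5, only HIST2H2AB shares under 10% of its words with other genes.

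Replication-independent histone genes, most of which give polyadenylated mRNAs and are known to supply histones outside S phase, are the natural comparison. H2AFX, which is on this list, is known to give both a stem-loop and a polyadenylated mRNA. Of 12 such genes on the list, 10 were listed in iMNs and 11 in i3Ns, with a median percentile of 93.9 and 96.0, above the members' 70.2 and 76.4. The difference was greatest for H3. H3F3A and H3F3B, which encode H3.3, stood at 14816 and 2858 per kilobase in iMNs and at 22399 and 5651 in i3Ns. Together with CENPA, the centromeric H3 listed in i3Ns only at 9.64 per kilobase, they summed to 6.96 times all replication-dependent H3 genes in iMNs and 6.22 times in i3Ns. For H1 the ratio of H1F0 and H1FX to the replication-dependent genes was 1.31 in both tables. For H2A it was 0.530 and 0.786, so that the replication-dependent genes held more than the 6 independent ones, H2AFX, H2AFZ, H2AFV, H2AFY, H2AFY2 and H2AFJ.

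**Figure D5:**
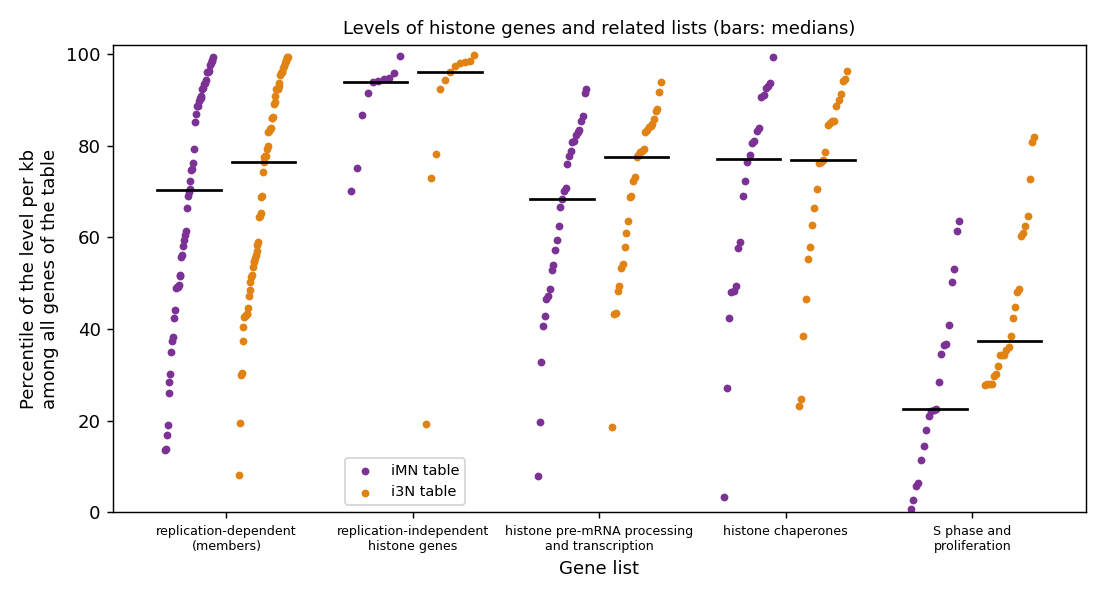
Percentile of each gene's level per kilobase among all genes of its table, for the members and 4 lists, with bars at medians. The replication-independent histone genes lie highest (medians 93.9 and 96.0) and the S phase genes lowest (22.5 and 37.3).

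The genes of histone pre-mRNA processing and histone transcription had a median percentile of 68.4 in iMNs and 77.5 in i3Ns. Of 30 on the list 29 were listed in each table, all but RNU7-1, the gene of the U7 RNA. Being unlisted does not show that the U7 RNA was absent from the cells. Of these 29, 21 stood above the median level of all genes in iMNs and 24 in i3Ns. SLBP stood at 1004 per kilobase in iMNs and 1022 in i3Ns, LSM10 at 1022 and 833, LSM11 at 629 and 265, and CPSF3 at 647 and 807. NPAT, the coactivator of histone gene transcription, was at 254 and 255. The lowest of the list in iMNs were CDK2 (33.3 and 135), which phosphorylates NPAT, and the endonuclease gene ZC3H12A, at percentile 7.92 and 18.7. ERI1, at 112 and 132, was below CDK2 in i3Ns. LSM11, the U7-specific protein, was lower in i3Ns than in iMNs, with means of 1743 and 4129 normalized counts.

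The histone chaperones, which carry histones to DNA, were likewise listed almost in full, 22 of 23 in iMNs and all 23 in i3Ns. Of those acting outside replication, HIRA stood at 690 and 730 per kilobase, ATRX at 989 and 1083 and UBN2 at 263 and 467. Of the subunits of the replication-coupled chaperone CAF-1, CHAF1A and CHAF1B stood lower, at 204 and 166 and at 71.7 and 84.9, whereas RBBP4, which also belongs to other chromatin complexes, was at 1132 and 1140. ASF1B was listed in i3Ns only, at 17.5, and HJURP, the chaperone of CENPA, had means of 14.5 and 47.6 normalized counts. NAP1L3, a neuronal member of the NAP1 family, had the largest contrast, 11743 in iMNs and 1723 in i3Ns.

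Genes of S phase and proliferation had a median far below that of the members. Of 24, 20 were listed in iMNs, with a median of 44.9 per kilobase at percentile 22.5, and 24 in i3Ns, with a median of 75.8 at percentile 37.3. MKI67, which marks cycling cells, was at 2.23 and 41.0 per kilobase and TOP2A at 3.95 and 54.6. The list was uneven, with 4 genes above the median level of all genes in iMNs and 7 in i3Ns. PCNA, the sliding clamp of DNA replication, was at 490 and 952, and MCM4 and MCM7, subunits of the replicative helicase, were at 451 and 619 and at 328 and 898, so that PCNA and MCM7 stood above the median member in i3Ns. CDK1, RRM2, BIRC5 and AURKB were listed in i3Ns only. Of the 20 genes listed in both tables, 19 were higher in i3Ns relative to the median of all genes, the exception being CCNE1, with a median log2 ratio of 1.34. The S phase list thus lay on the same side as the H1 genes, HIST1H3B and the H3 and H4 genes listed in i3Ns only, whereas the leading members, HIST1H4E, HIST1H2AE and HIST1H2AC, differed little. Its part in those contrasts was not tested.

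The labelled cell types were checked against markers. All 8 pan-neuronal markers were above the median level of all genes in both tables, with TUBB3 at percentile 99.9 in each. Of the 6 genes on the glutamatergic list, 3 were higher in each table relative to the median of all genes. SLC17A6, SLC17A7 and TBR1 had means of 593, 50.1 and 10.2 normalized counts in iMNs and 11237, 6490 and 1801 in i3Ns. NEUROG2 and CUX1 were higher in iMNs, at 263 and 6662 against 114 and 5354, and GRIA2 was nearly equal, at 4956 and 5070. The motor neuron list was divided. The cholinergic genes SLC18A3 and SLC5A7 were higher in iMNs (3115 and 8460, against 1865 and 2472), whereas MNX1, which encodes HB9, and ISL1 were higher in i3Ns (2279 and 14299, against 430 and 1663). Of the glia and progenitor list, 5 of the 6 genes listed in both tables were higher in i3Ns relative to the median of all genes, as were 4 of 5 mesenchymal genes. VIM had means of 3376 and 36571. Of the pluripotency genes, LIN28A had means of 215 and 4216 and DNMT3B 438 and 306, and POU5F1 and NANOG were listed in i3Ns only, at 13.9 and 7.73. GFAP and AQP4, which mark astrocytes, were listed in neither table. SOX2 had means of 53.9 and 38.9. Their part in the histone contrasts was not tested.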

How the data were processed

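RNA-seq libraries were made from total RNA after ribosomal RNA depletion and read as 150-base pairs. Per the study's methods, the authors trimmed reads with fastp, quantified transcripts with Salmon and analysed counts with DESeq2. Versions, the transcript annotation and any filter on low counts are not given in the sources used here, and the submitters' processing notes name hg38. Each deposited table, 1 for each cell type, holds a normalized signal, the authors' mean over 6 libraries of counts divided by size factors, beside the authors' own comparison of *SMN*-KD with SCR (log2 fold change, its standard error, p-value and adjusted p-value). The columns of that comparison were not used. The count model planned for *SMN*-KD against SCR needs counts per library and was not run, and the knockdown of *SMN1* and *SMN2* was likewise not checked.

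Members were found by symbol. Lengths, positions and sequences came from GENCODE v44 (the Ensembl canonical transcript of each gene) and from the hg38 genome, matched by gene identifier, and promoter windows from RefSeq. Uniqueness is the share of 31-base words of a transcript that occur in transcripts of other genes. Percentiles are over the 15713 genes of the iMN table and 18138 of the i3N table that have a length. A stem-loop was a perfect stem of 6 pairs beginning with GG, with a loop of 4 bases, within 100 bases after the stop codon. Named members were the 3 of each class with the highest mean per kilobase, those listed in 1 table with a mean of at least 10, and the 5 with the highest and the 5 with the lowest ratio between tables among members with a mean of at least 100 in either. Other members named below these limits were chosen after their values were seen. The members, lists and sequence searches were chosen with earlier results of these data known. Scripts ran in Python 3.11.15 with pandas 2.3.3 and scipy 1.17.1, and the searches and the centring of ratios were tested on simulated data.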

Additional observations from a re-analysis of the deposited data

How the results depend on the processing

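The count of listed members stayed within 1.5 times its value under each filter run: 54 in iMNs and 63 in i3Ns on the main assembly only, 52 and 60 among protein-coding genes, 53 and 62 with a mean of at least 10, and 44 and 50 with a mean of at least 100. The setting on the main assembly leaves out HIST2H2AA4, for which no position was found under its identifier. The summed mean of the members was 43445 in iMNs and 48041 in i3Ns on the main assembly only. Without the member of highest mean, HIST1H4E in iMNs and HIST2H2BE in i3Ns, it was 39090 and 44275. Their median mean was 300 and 349 normalized counts, and 307 and 363 with a mean of at least 10. The H4 share of the members' level was 42.3% in iMNs and 43.7% in i3Ns with the longest transcript as length, 35.6% and 38.4% with the coding length, 28.8% and 30.2% with no division by length, and 30.004% and 32.2% without members sharing over 50% of their words, a choice made after seeing the data. The median log2 ratio of members, i3N over iMN, was 0.26 relative to the sums of the tables, 0.31 as deposited, 0.14 over members with a mean of at least 100 in both tables and 0.15 without members sharing over 50% of their words. It stayed above 0 in these settings.

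No paired analysis was possible because the deposited values are means over SCR and *SMN*-KD libraries, with no column per library. For the same reason leaving out a library was not possible, and the alternatives planned for the comparison of *SMN*-KD with SCR were not run. Depth is unknown, so levels near the bottom of a table carry an unknown counting error.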
